A study of Mus musculus with 27 samples.

Results

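Mal, Olah and Tmem252 are 3 of the 28427 gene names read on the arrays, and 4 of the 41174 probes report them. They were chosen from measured values. Mal was chosen because it is low in Keap1-/- esophagus at postnatal day 7 (P7) and raised in adult Nrf2-/- epithelium. Olah and Tmem252 were chosen because they differ with loss of Nrf2 in adults and not at P7. Mal and Olah were found by the gene name in the scanner files. No probe is named Tmem252 there, and its probe is listed as E030010A14Rik, an older name of that gene, which was matched through its RefSeq accession.

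Nrf2 is a transcription factor that switches on genes of antioxidant defence and detoxification by binding antioxidant response elements in their promoters. Keap1 holds it in the cytoplasm and marks it for degradation, so loss of Keap1 leaves Nrf2 active, and Keap1-/- mice are known for hyperkeratosis of the esophagus and an early death. Mal is a membrane proteolipid with a MARVEL domain that takes part in apical sorting in epithelia and is also made by myelinating cells and T cells. Olah is a thioesterase that releases medium-chain fatty acids from fatty acid synthase. Tmem252 is a transmembrane protein.

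The study followed the maturing mouse esophagus and asked what loss of Nrf2, of Keap1 or of both does to it. There were 9 groups of 3 arrays, 27 in all. Whole esophagi came from wild-type C57BL/6J mice at embryonic days 11.5 and 15.5 (E11.5, E15.5), postnatal day 0 (P0) and P7. At P7 there were also whole esophagi of Nrf2-/-, Keap1-/- and Nrf2-/-Keap1-/- mice, on a C57BL/6J background by the labels and a C57BL one by the study's methods. Adults of 8 weeks were wild-type C57BL/6J or Nrf2-/- on that background, and there the esophageal epithelium was taken. All mutants were germline knockouts, so the gene was missing in every tissue and before birth, and no adult Keap1-/- group was measured here. Each replicate was an individual mouse, labelled with Cy5 and hybridised with Universal Mouse Reference RNA, a pool from 11 mouse cell lines, labelled with Cy3. A level below is the log2 ratio of Cy5 to Cy3 after background correction and loess normalization, and a difference is between 2 such levels. A gene is called where limma gave an adjusted p (Benjamini-Hochberg, over all genes tested) no higher than 0.05. In whole tissue, fewer cells of a type and less RNA per cell cannot be told apart.

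The labels were checked before the members were read. Nfe2l2, which encodes Nrf2, was lower by a log2 difference of -3.63 at P7 and -4.30 in adults in Nrf2-/- mice, and by -3.86 in Nrf2-/-Keap1-/- mice, and all 3 differences were called. The Keap1 probe was not called in Keap1-/- (log2 difference -0.45, adjusted p = 0.145), and whether that probe lies in the deleted part was not determined here, so it does not check the label. Nqo1, an Nrf2 target, was higher in Keap1-/- esophagi by 4.89. Epithelial identity was clear: 7 of 7 basal squamous markers were well above background on every array. The arrays labelled E11.5 replicate 3 and E15.5 replicate 1 went against their labels. Over genes measured on every array and well above background on 3 or more, the former had r = 0.98 with both other E15.5 arrays. Within its labelled group it had 0.77 and 0.83. The latter had 0.96 and 0.93 with the other arrays labelled E11.5 but 0.80 and 0.81 within its own group. Results of the members that rest on them are therefore given with and without both arrays. The 3 Keap1-/- arrays were alone on a slide that was scanned apart from the rest. The effects of slide, scan and Keap1 genotype therefore cannot be told apart. No slide held both adult genotypes. Wild-type adult replicates 1 and 2 were in scan 1, with software version 10.5.1.1. The other adult arrays had version 10.7.3.1, and only scan 2 held both genotypes. In adults the effects of slide and Nrf2 genotype therefore cannot be told apart, and those of scan and version only in part.

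The Mal probes lie on the minus strand of chromosome 2 in the mm9 build that the newer files name, at chr2:127458948-127458975 for A_51_P499071 and chr2:127459473-127459532 for A_52_P562661. The Olah probe A_51_P369906 lies at chr2:3259569-3259628 on the minus strand, and the Tmem252 probe A_52_P141608 at chr19:24752451-24752510 on the plus strand. No annotation of that build was used here to place them within exons.

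Because the members were chosen for a link to Nrf2 genotype, the 250 bases before each RefSeq start are shown from 5′ to 3′ in lower case, from GRCm38.p6. They are chr2:127656696-127656945 on the minus strand for Mal, chr2:3366570-3366819 on the minus strand for Olah and chr19:24673758-24674007 on the plus strand for Tmem252. Capitals mark matches to the core of the antioxidant response element, searched on both strands as TGACNNNGC and as TGAGNNNGC, and no match of one overlapped a match of the other.
Mal: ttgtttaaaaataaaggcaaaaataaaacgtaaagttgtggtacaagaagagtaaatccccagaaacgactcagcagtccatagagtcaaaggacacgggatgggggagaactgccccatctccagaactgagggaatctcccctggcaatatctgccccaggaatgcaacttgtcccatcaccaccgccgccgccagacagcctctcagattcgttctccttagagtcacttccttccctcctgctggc
Olah: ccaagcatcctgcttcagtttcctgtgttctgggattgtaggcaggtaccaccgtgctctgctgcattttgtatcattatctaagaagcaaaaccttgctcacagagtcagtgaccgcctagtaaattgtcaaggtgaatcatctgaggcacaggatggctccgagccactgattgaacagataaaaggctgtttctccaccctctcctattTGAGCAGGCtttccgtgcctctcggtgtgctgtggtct
Tmem252: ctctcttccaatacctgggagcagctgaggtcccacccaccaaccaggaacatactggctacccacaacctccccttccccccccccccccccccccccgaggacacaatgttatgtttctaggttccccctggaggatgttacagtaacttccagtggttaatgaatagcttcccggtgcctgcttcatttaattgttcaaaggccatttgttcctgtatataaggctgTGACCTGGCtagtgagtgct

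The Mal sequence holds no match to either core. The Olah sequence holds 1 match to TGAGNNNGC, TGAGCAGGC, from 38 to 30 bases before the start. The Tmem252 sequence holds 1 match to TGACNNNGC, TGACCTGGC, from 20 to 12 bases before the start. Of 32851 RefSeq promoters of the same length, 10.2% held TGACNNNGC and 14.4% held TGAGNNNGC. A match describes the letters and was not measured as a binding site.

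Across development Mal was not well above background on 3 of the 6 embryonic arrays and was high at birth. With all arrays kept, E15.5 replicate 1 among them, Mal had the 51st largest increase of 19874 genes from E15.5 to P0. At E11.5 its level was -1.13, -0.92 and 3.07, and at E15.5 it was -1.29, 3.04 and 2.84. The 3 low arrays, of which 2 are labelled E11.5 and 1 E15.5, were not well above background, and both groups overlapped because of the 2 arrays that went against their labels. With all arrays the log2 difference from E11.5 to E15.5 was 1.19 (SE 1.22, 95% interval -1.50 to 3.89), which was not called (adjusted p = 0.996). Limma called 0 of 19874 genes in that comparison, a percentage of 0, and 327 had an unadjusted p under 0.05. Without both arrays the difference was 3.97 (SE 0.20, adjusted p = 8.6e-06 in limma, the lowest of a range that reached 1 over the alternatives other than single arrays left out), and E11.5 was then not well above background on either array, so its level is only a bound. On the Cy5 channel alone, normalized between arrays, Mal was at least 16.4-fold higher at E15.5 (mean log2 signal 10.92 against 6.89). Without them 13.8% of genes were called.

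At P0 the level of Mal was 5.57, 5.70 and 5.42, and at P7 it was 5.45, 5.92 and 5.33. All P0 arrays lay above all E15.5 arrays. Mal rose from E15.5 to P0 by 4.03 (SE 1.22, 16.3-fold, adjusted p = 0.041 in limma), where 19.7% of genes were called. Without both arrays the rise was 2.62 (SE 0.18, adjusted p = 3.54e-05), and the adjusted p reached 0.115 among those alternatives. The call with all arrays was lost in 7 of 12 runs that left out 1 array, with the difference between 2.62 and 4.78. From P0 to P7 the groups overlapped and the difference was 0.01 (SE 1.22, 95% interval -2.69 to 2.70, adjusted p = 0.999), a comparison in which 2.42% of genes were called. Without both arrays it was 0.01 with a smaller SE of 0.16 (adjusted p = 0.993 in limma).

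Tmem252 changed less over development. Its level was 0.11, -0.05 and 0.25 at E11.5, then 0.09, 0.12 and 0.51 at E15.5. It was 0.59, 1.13 and 0.95 at P0, above every E15.5 array. Tmem252 rose from E15.5 to P0 by 0.65 (SE 0.16, adjusted p = 0.0197 in limma), but without both arrays that stand apart the difference was 0.57 with an adjusted p of 0.0521. Over those alternatives that p ran from 0.0192 to 0.641. The step from E11.5 to E15.5 was 0.14 (SE 0.16, 95% interval -0.23 to 0.50, adjusted p = 0.996), and without both arrays 0.29 (SE 0.20, adjusted p = 0.373). That from P0 to P7 was -0.23 (SE 0.16, 95% interval -0.59 to 0.13, adjusted p = 0.603), and -0.23 without both arrays too (adjusted p = 0.475). Olah was not well above background on any of the 12 wild-type arrays from E11.5 to P7, where its level ran from -0.35 to 0.15, so its course cannot be measured.

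**Figure D1:**
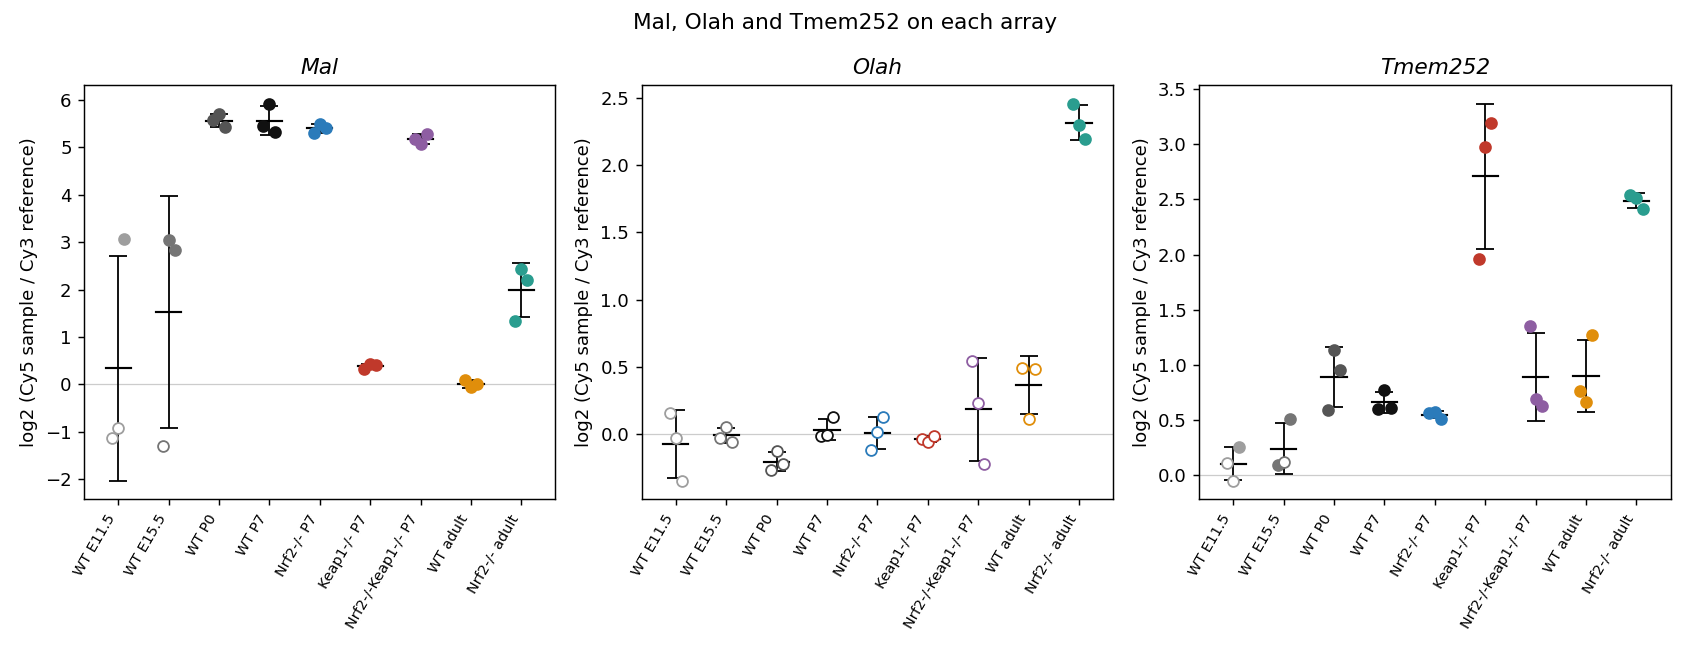
Each point is 1 array, its height the log2 ratio of Cy5 sample to Cy3 reference, for the 9 groups of 3. Filled points were well above background in Cy5 and open points were not, and lines give the mean with the standard deviation. Mal sits near 5 or 6 from P0 to P7 except in Keap1-/-, Olah is well above background only in adult Nrf2-/- epithelium, and Tmem252 is highest in Keap1-/- esophagi and adult Nrf2-/- epithelium.

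At P7 the members had different levels across the genotypes. Mal was at 5.30, 5.49 and 5.41 in Nrf2-/- esophagi, within the wild-type range in 2 of 3. The difference from wild type was -0.16 (SE 0.14, 95% interval -0.47 to 0.14), which was not called (adjusted p = 0.686 in limma), and 0.0156% of genes were called there. In Keap1-/- esophagi Mal was at 0.33, 0.43 and 0.40, far below every other P7 array. This was the contrast that chose Mal, so its difference of -5.18 (SE 0.14, 36.2-fold lower) is a description. It was the 14th largest decrease of 19211 genes, in a comparison that called 33.3% of them.

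When Nrf2 was missing as well, Mal was close to its wild-type level. In Nrf2-/-Keap1-/- esophagi it was at 5.17, 5.08 and 5.28. These arrays lay just below the wild-type ones without overlap, by -0.39 (SE 0.14, 95% interval -0.69 to -0.08), and the difference was not called (adjusted p = 0.188, with 0.458% of genes called). Under scale normalization between arrays it was -0.98 and was called, with an adjusted p of 0.0489 in a range over the alternatives that reached 0.92. Against Keap1-/- esophagi Mal was higher by 4.79 (SE 0.14), a value that shares arrays with the contrast that chose it. The wild-type arrays were the high side of that contrast. The differences of Nrf2-/-Keap1-/- and of Nrf2-/- from wild type therefore share arrays with it too.

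The signals behind these ratios were read as well. On the first Mal probe the mean Cy5 intensity was 10900 to 26200 on the 12 arrays of P0 and P7 other than Keap1-/-, and 116, 156 and 149 on the Keap1-/- arrays. Its Cy3 signal, from the same reference RNA on every array, was also higher on those 12 arrays, at 759 to 1510 against 141 to 434 on the other 15. Cy3 on the second Mal probe shifted likewise, at 908 to 2210 against 132 to 489. The part of that shift in the ratio was not tested. The first Mal probe minus the second ran from -0.26 to 1.06 across arrays, with a median of 0.20. No Mal spot was saturated.

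Tmem252 went the other way in Keap1-/- esophagi. It was at 0.60, 0.77 and 0.61 in wild type and at 1.96, 2.98 and 3.19 in Keap1-/-, with no overlap. Tmem252 rose by 2.05 (SE 0.28, 4.14-fold, 95% interval 1.43 to 2.67, adjusted p = 0.000378 in limma), in a comparison where 15.4% of genes were called higher. This contrast was not used to choose Tmem252, but its wild-type arrays were also in the comparison with Nrf2-/- at P7 that was. The call held in all 12 runs that left out 1 array, with the difference between 1.81 and 2.42. Cy5 intensity on its probe was 167, 507 and 586 in Keap1-/- against 85.3, 78.8 and 95.3 in wild type, while Cy3 was 53.7 to 92.4 against 85.4 to 99.5.

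In Nrf2-/-Keap1-/- esophagi Tmem252 was at 1.35, 0.69 and 0.63, below every Keap1-/- array. It was lower than in Keap1-/- by -1.82 (SE 0.28, 3.54-fold, adjusted p = 0.00077 in limma), where 15.1% of genes were called lower. The difference from wild type was 0.23 (SE 0.28, 95% interval -0.39 to 0.85, adjusted p = 0.731). Both differences share arrays with the first, so the 3 are not independent. In Nrf2-/- esophagi it was at 0.56, 0.57 and 0.51, all just below wild type, and the difference of -0.11 (SE 0.28) belongs to the rule and is given with no test.

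Olah was not well above background on any of the 12 P7 arrays. Its level was -0.02, -0.01 and 0.12 in wild type and -0.12, 0.01 and 0.12 in Nrf2-/-. It was -0.04, -0.06 and -0.02 in Keap1-/- and 0.54, 0.23 and -0.23 in Nrf2-/-Keap1-/-. The Nrf2-/-Keap1-/- arrays spread widest, and every mutant group overlapped wild type. A change of Olah at P7 was therefore not detectable, and it was not tested, since none of the 12 arrays passed the filter on dim probes.

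Wild-type adult epithelium had Mal at 0.09, -0.06 and 0.00, far below the P7 arrays. The log2 difference of Mal from P7 to adult was -5.55 (SE 0.17, 47.0-fold lower). Both groups entered the contrasts that chose Mal, wild type at P7 as the high side of one and adult wild type as the low side of the other, so the value is a description with no test. It was the 21st largest decrease of 18148 genes in a comparison that called 22.9% of them lower. The difference was also -5.55 within the first scan, which held 2 of the adult arrays. Age and tissue cannot be told apart here, since P7 samples were whole esophagi and adult samples epithelium.

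Marker lists show how the tissue differed. Of 8 skeletal muscle markers 8 were called lower in adults, and so were 6 of 6 fibroblast, 4 of 4 endothelial, 4 of 6 smooth muscle and 2 of 4 tested other leukocyte markers. Meanwhile 6 of 12 suprabasal squamous markers were called higher and none lower. Among all genes 19.9% were called higher and 22.9% lower there. Of 7 T cell markers none of 5 tested was called by limma and 0 had an unadjusted p under 0.05, and of 8 Schwann cell and glia markers 6 of 7 tested were lower. In Keap1-/- esophagi 5 of 6 fibroblast, 4 of 6 smooth muscle and 3 of 4 tested other leukocyte markers were lower, and 1 smooth muscle marker was higher. There 2 of 12 suprabasal markers were higher and 1 lower, beside 15.4% and 18% of all genes. In adult Nrf2-/- against wild-type epithelium limma called none of 7 tested skeletal muscle markers, in a comparison that called 0.445% of all genes. Of the 7, 5 had an unadjusted p under 0.05, as did 3060 of 18190 genes. The median of the 7 was 0.84 beside 0.02 over all genes. Their mean log2 ratio was 1.29, 2.12 and 2.06 on the Nrf2-/- arrays and 0.73, 1.35 and 0.65 on the wild-type ones. The part of the marker lists in the values of the members was not tested. Gastric columnar markers varied within groups at P7: their mean log2 ratio was 3.79, 2.59 and -0.03 on the wild-type arrays, on which Mal was at 5.45, 5.92 and 5.33. It was 2.15, -0.01 and 0.65 on the Nrf2-/- arrays, with Mal at 5.30, 5.49 and 5.41, and 0.19, 3.40 and 0.04 on the Nrf2-/-Keap1-/- arrays, with Mal at 5.17, 5.08 and 5.28. On the Keap1-/- arrays it was 0.09, -0.06 and -0.01, with 3 of 6 markers well above background on each. Fat markers were higher in Nrf2-/-Keap1-/- esophagi, with a mean of 3.95 to 4.65 against 1.18 to 1.84 in wild type, and their part in the small differences there was not tested.

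In adult Nrf2-/- epithelium Mal was at 1.34, 2.44 and 2.20, above all wild-type adults but below all P7 arrays other than Keap1-/-. The difference of 1.98 (SE 0.26, 3.95-fold) was used to choose it. It was the 13th largest increase of 18190 genes, and 0.445% of genes were called in that comparison. Cy5 intensity on the first probe was 524, 1530 and 873 against 127, 96.7 and 198 in wild-type adults. Within the one scan that held both genotypes, with 2 mutant arrays and 1 wild-type array, the difference was 1.89.

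Olah had its only measurable level in that group. It was at 2.46, 2.30 and 2.20 in adult Nrf2-/- epithelium and at 0.49, 0.11 and 0.48 in wild-type adults. The Cy5 intensity of its probe was 348, 350 and 308 against 57.3, 47.8 and 63.7, and the 3 mutant arrays were the only ones of 27 well above background. As the wild-type arrays give only a bound, Olah was at least 3.75-fold higher in adult Nrf2-/- than in wild-type epithelium. It was at least 4.49-fold higher than in Nrf2-/- esophagi at P7, where age and tissue differ too. The fitted difference from wild-type adults was 1.96 (SE 0.15), and it was 1.25 with median centring and 4.28 with the processed signals of Feature Extraction. Within the scan that held both adult genotypes the difference was 1.91. That contrast was used to choose Olah, which passed the filter on dim probes only through those 3 mutant arrays. Its bounds and difference are therefore descriptions with no test.

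Tmem252 was at 2.54, 2.51 and 2.41 in adult Nrf2-/- epithelium and at 0.76, 0.66 and 1.27 in wild-type adults, again with no overlap. The difference of 1.59 (SE 0.17, 3.01-fold) was used to choose it. Cy5 intensity was 589, 696 and 574 against 86.4, 80.0 and 190. The Cy3 signal of this probe was 133 to 144 on the mutant arrays and 68.6 to 97.7 on the wild-type ones. With the processed signals the difference was 0.48, and within the scan that held both genotypes it was 1.25. From P7 to adult, wild-type Tmem252 differed by 0.23 (SE 0.18). Both groups entered the contrasts that chose Tmem252, so this value is a description with no test. It was 1.02 with the processed signals and turned to -0.39 with each spot's own local background.

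**Figure D2:**
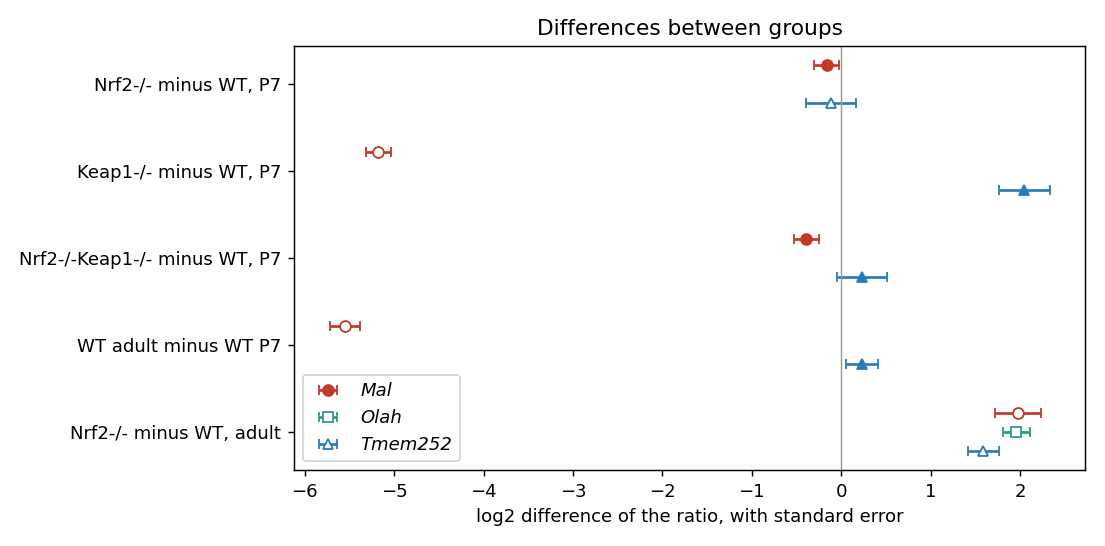
Points give the log2 difference between 2 groups of 3 arrays for each member, with its standard error. Open points carry no test, being the differences that chose the member and that of Mal between adult and P7. The filled point of Tmem252 between adult and P7 is also only a description. Olah is drawn only where it could be tested. Mal lies at -5.18 in Keap1-/- and at 1.98 in adult Nrf2-/-, whereas Tmem252 lies above 0 in both, at 2.05 and 1.59.

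Median centring in place of loess moved the median of all genes in adult Nrf2-/- against wild-type epithelium from 0.02 to 0.40. Relative to those medians all 3 members stayed higher. The split of calls moved as well. Of 81 genes called, 41 were higher, against 17 of 20 with median centring and 10 of 34 with processed signals. In Keap1-/- esophagi 2949 of 6398 calls were higher, against 5369 of 8133 with median centring, where the median of all genes moved from -0.02 to 0.11. From E15.5 to P0, 2234 of 3912 were higher, against 1557 of 3866.

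The order of the groups differed for each gene. For Mal it ran from P0 and P7 wild type through Nrf2-/- and Nrf2-/-Keap1-/- at P7, then adult Nrf2-/-, E15.5, Keap1-/- at P7, E11.5 and adult wild type. Nrf2-/- at P7 did not overlap Nrf2-/-Keap1-/-, nor the latter adult Nrf2-/-, and all other neighbours in that order overlapped. Without both arrays that stand apart, E15.5 came before adult Nrf2-/- and E11.5 came last, and the groups from Nrf2-/- at P7 down no longer overlapped their neighbours. For Tmem252, Keap1-/- at P7 and adult Nrf2-/- led and overlapped each other. Next came P0, Nrf2-/-Keap1-/- and adult wild type at an equal mean of 0.89, then wild type and Nrf2-/- at P7, then E15.5 and E11.5, which overlapped only when both those arrays were kept. For Olah adult Nrf2-/- stood apart and the other 8 groups each overlapped the next, except that without both arrays Keap1-/- at P7 did not overlap P0.

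Nrf2 targets carry the pathway's output. A list of 35 known targets had a mean log2 ratio of -0.24 to 0.15 in wild type at P7, 2.99 to 3.14 in Keap1-/-, -0.39 to -0.22 in Nrf2-/- and -0.37 to -0.10 in Nrf2-/-Keap1-/-. It was 1.50 to 1.59 in adult wild type and 0.49 to 0.60 in adult Nrf2-/-. In Keap1-/- 33 of 35 were called higher and none lower, with a median difference of 2.61 beside -0.02 over all genes. Gstm3 and Gstm1, glutathione transferases, rose by 6.14 and 5.97, Gclc, of glutathione synthesis, by 6.04 and Slc7a11, a cystine transporter, by 5.71. In adults against P7 30 were called higher and 1 lower, beside 19.9% and 22.9% of all genes, led by Aldh3a1 at 4.30. In adult Nrf2-/- 13 were lower and none higher, beside 0.445% of all genes called in either direction, with Nqo1 at -3.41. With median centring 2 of the targets were called there. At P7 none was called by limma in Nrf2-/- and 10 had an unadjusted p under 0.05, where 3 genes were called in all and 2070 had such a p.

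Set beside that list on the 18 P7 and adult arrays, Mal was high where targets were low and low where they were high. The embryonic arrays were otherwise: E11.5 replicate 1 and E15.5 replicate 1 had the targets at -1.17 and -1.09 and Mal at -1.13 and -1.29. Its 9 P7 arrays other than Keap1-/- ran from 5.08 to 5.92 with targets at or below 0.15. Adult Nrf2-/- arrays lay between, and adult wild type and Keap1-/- had Mal at 0.43 or less with targets at 1.50 or more. Tmem252 was high at both 2.99 to 3.14 and 0.49 to 0.60 and lower between, and Olah was high only at 0.49 to 0.60. The points share group, tissue and slide, and no correlation was drawn from them. Mal was chosen for its values in Keap1-/- at P7 and adult Nrf2-/-, so its pattern here is partly fixed by that choice. Olah and Tmem252 were likewise chosen for their values in adult Nrf2-/-.

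**Figure D3:**
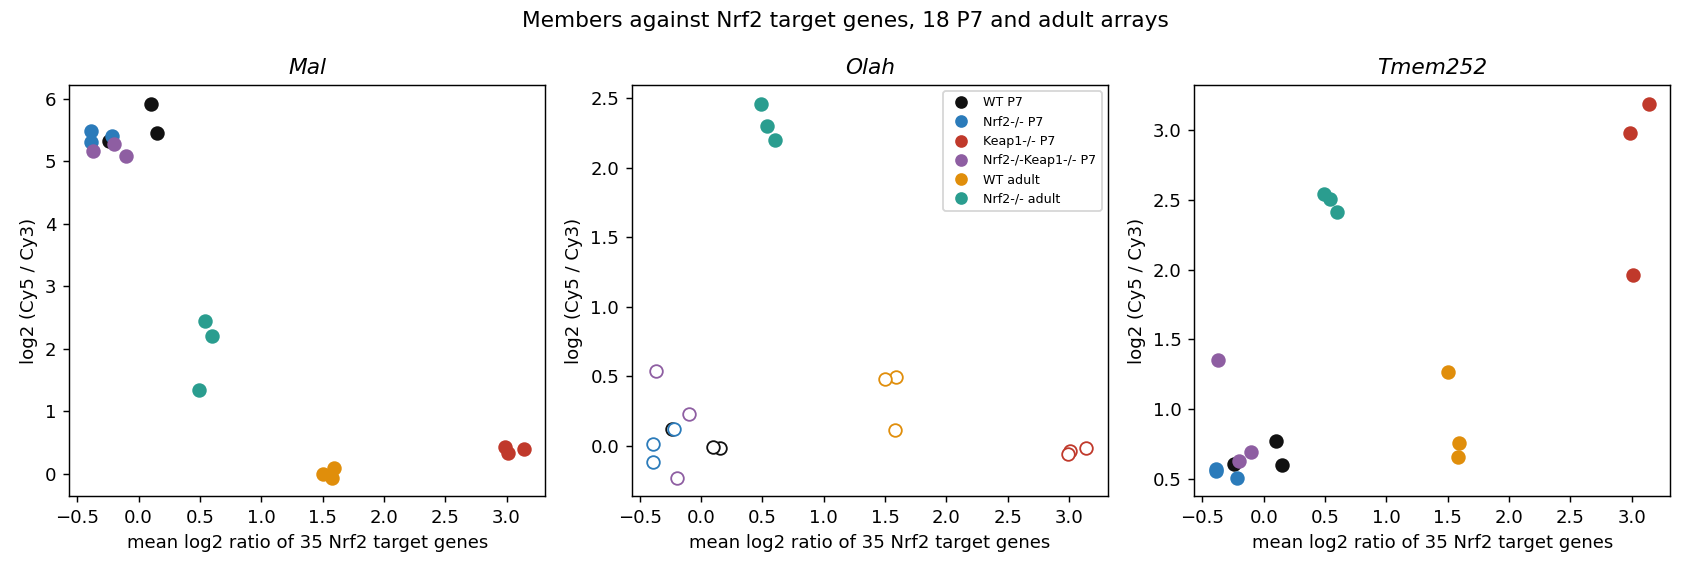
Each point is 1 of the 18 P7 or adult arrays. The horizontal axis is the mean log2 ratio of 35 Nrf2 target genes and the vertical axis the log2 ratio of the member, with open points not well above background. Mal is above 5 on the plotted arrays with the lowest target means and at 0.43 or less on those with the highest, while adult Nrf2-/- arrays, with targets at 0.49 to 0.60, stand high for Olah and Tmem252. The members were chosen on some of the groups drawn here.

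Mal has relatives with MARVEL domains, 23 of 24 of which were found on the array. From E15.5 to P0, 8 were called higher and 2 lower of 22 tested, with a median of 0.54 beside -0.01 over all genes, of which 11.2% were called higher. Without both arrays that stand apart 9 were higher and 2 lower. Pllp, plasmolipin of myelin and epithelia, rose by 2.57 and Marveld3, of tight junctions, by 1.66. In Keap1-/- esophagi 7 were lower and 2 higher, with a median of -0.13 beside -0.02, and 18% of all genes were called lower; with outlier-marked spots left out 5 were called in all. Pllp fell by 2.48 (SE 0.13, adjusted p = 3.51e-07 in limma), Marveld3 by 1.86, Cmtm8 by 1.13 and Cmtm3 by 0.89. In adults against P7, 7 were lower and 2 higher of 21, beside 22.9% and 19.9% of all genes. Cmtm5 fell by 2.98, Pllp by 2.54, Cmtm3 by 2.45 and Marveld3 by 1.52. In adult Nrf2-/- limma called none of 20, beside 0.445% of all genes, and 3 had an unadjusted p under 0.05. The differences ran from -0.19 to 0.60, with Pllp at 0.26 (adjusted p = 0.291). At P7 limma called none of 22 in Nrf2-/- or in Nrf2-/-Keap1-/-, where 2 and 5 had an unadjusted p under 0.05. Among all genes 0.0156% and 0.458% were called there.

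**Figure D4:**
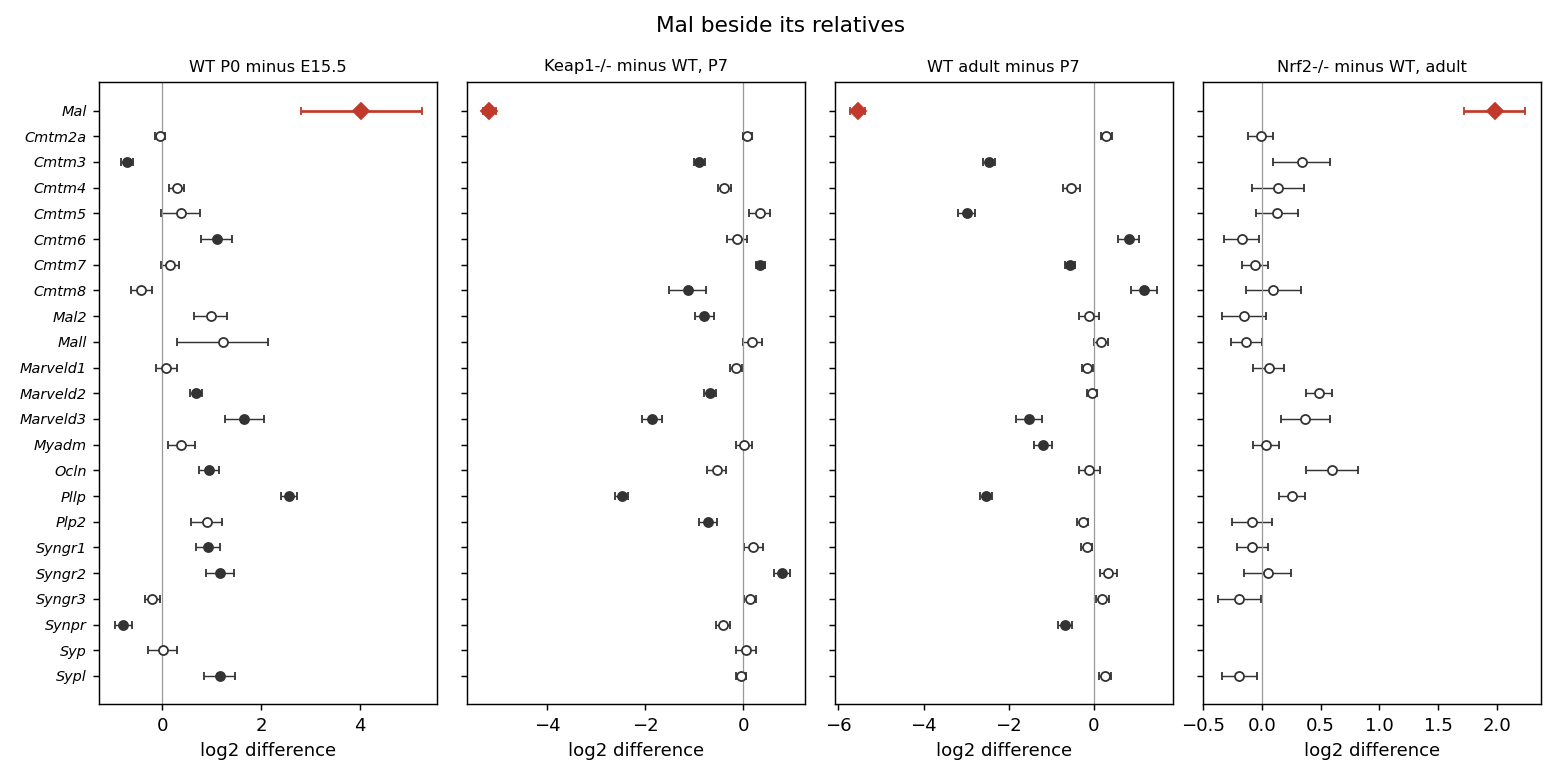
Mal (diamond) stands above its relatives (circles) in 4 comparisons, each point a log2 difference with its standard error, filled where called at an adjusted p of 0.05 or lower. Mal is drawn without regard to a call. Pllp moved in the direction of Mal from E15.5 to P0, in Keap1-/- and from P7 to adult, at 2.57, -2.48 and -2.54.

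Fatty acid genes were read where Olah was raised, a comparison in which 0.445% of all genes were called, so few calls could be met in a short list. Of 37 genes of fatty acid synthesis, elongation and thioesterases, none of 34 tested was called by limma in adult Nrf2-/- and 7 had an unadjusted p under 0.05, with a median of 0.03 and a range from -0.91 to 0.94. In Keap1-/- esophagi 18 were higher and 1 lower of 35, with a median of 0.55 beside -0.02 over all genes, of which 15.4% were higher and 18% lower. They were led by Acot7, an acyl-CoA thioesterase, at 2.31, Elovl1, of fatty acid elongation, at 2.15, Me1, malic enzyme, at 1.64 and Acot8 at 1.41. In adults against P7, 18 were higher and 5 lower of 34, beside 19.9% and 22.9% of all genes, with Elovl4 at 3.81 and Elovl7 at 2.25 higher and Thrsp at -2.34.

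The genes most like Mal over the 18 P7 and adult arrays, by Pearson r among 19192 genes, were Ceacam1 at 0.989, Psca at 0.988, Pbp2 at 0.987, Plet1 at 0.983 and Upk2 at 0.982. Over all 27 arrays they were Plet1 at 0.983, Ceacam1 at 0.979, Ceacam2 at 0.970, Psca at 0.969 and Ltf at 0.955. Psca had a mean level of 4.49 in wild type at P7, 0.44 in Keap1-/-, 0.63 in adult wild type and 1.58 in adult Nrf2-/-. Pbp2 was at 0.14 at P0, where Mal was at 5.56, and at 6.97 at P7. Opposite to Mal lay Gstm6 at r = -0.987, Ces1g at -0.982 and NAP030039-1 at -0.979, and Gstm6, a glutathione transferase, was at 0.02 in wild type at P7, 3.05 in Keap1-/- and 3.01 in adults. The arrays share groups, so these values describe group patterns.

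For Tmem252 the most similar genes over the 18 arrays were Mss51 at r = 0.910, Nyx at 0.892, Efcab5 at 0.890, and Sprr2h and Tatdn2 at 0.889. Over 27 arrays they were Tatdn2 at 0.910, Efcab5 at 0.902, Retreg3 and Nyx at 0.895 and Plpp6 at 0.894. Sprr2h, a small proline-rich protein of the cornified envelope, was at 0.78 in wild type at P7, 4.62 in Keap1-/-, 2.94 in adult wild type and 4.44 in adult Nrf2-/-. The most opposite were A_52_P1029561 at -0.938, Trdmt1 at -0.914 and Ddx5 at -0.913. For Olah they were Olfr1245 at 0.946, TC1704080 at 0.927, Osbpl9 at 0.923, and Eif1 and Patl2 at 0.919 over 18 arrays. Over 27 they were Olfr1245 at 0.919, Patl2 at 0.917, TC1704080 at 0.912, ENSMUST00000113534 at 0.896 and Sik3 at 0.891. The lowest were Hunk at -0.920, Tg at -0.914 and Ipp at -0.913. Since Olah was not well above background on 24 of 27 arrays, that list rests on the other 3.

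Leaving the members out, 38 genes were called higher in adult Nrf2-/-. Of these 15 were called lower and 5 higher in Keap1-/- esophagi, beside 18% and 15.4% of all genes. Another 15 were not called and 3 could not be tested. Both comparisons share no array. Of the 40 called lower in adult Nrf2-/-, which include the deleted Nfe2l2, 31 were called higher and 3 lower in Keap1-/-, and 6 were not called.

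Neighbouring genes were read too. Within 200 kb of Mal 10 of 11 genes were on the array, and in Keap1-/- 4 were called higher and 2 lower of 10, beside 15.4% and 18% of all genes. Gpat2, of glycerolipid synthesis, was among them at 3.11 (adjusted p = 2.31e-05 in limma), and was chosen after its values were seen. In adult Nrf2-/-, where 0.445% of all genes were called, limma called none of 9 around Mal, 8 around Olah or 3 around Tmem252. Of them 0, 0 and 1 had an unadjusted p under 0.05. So few genes could hardly hold a call at that share.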

How the data were processed

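RNA of whole esophagi or, in adults, esophageal epithelium was hybridised in Cy5 with reference RNA in Cy3 to 27 Agilent arrays in 9 groups. The authors deposited scanner files with the mean intensity and local background intensity of each spot, read by Agilent Feature Extraction (versions 10.5.1.1 and 10.7.3.1 in the file headers, 9.1 in the submitters' notes), and a matrix of log10 ratios, equal within 0.005 to those in the scanner files, that had column medians of -0.003 to 0. The normexp method (offset 50) corrected the mean intensities, a local background over 5 times the array median being replaced by that median and the spot left out, and normalized by loess within each array. Spots marked as outliers were kept, control spots left out, and log2 ratios averaged over spots and then probes. Such ratios understate changes of dim probes because of the offset. Of 41174 probes, 27434 (66.6%) were matched to RefSeq by accession.

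Genes with Cy5 signal well above background on 3 or more arrays of a fit, and at least 2 values in each group, were tested with limma 3.58.1 (statmod 1.5.0) in R 4.3.3, by fits of 4 wild-type ages, 4 genotypes at P7, both wild-type ages and both adult genotypes. The function was tested on simulated data. Median Cy5 intensity was 81.8 to 226 and 58.4% to 68.7% of probes were well above background; the number of arrays limits the precision. There were 11 slides and 4 scans. Members and lists were chosen with earlier results of these data known. Named genes were the members, the 5 most and 3 least correlated genes of each among those well above background on at least 9 arrays, and up to 4 called genes of a list with the largest change. Replicate numbers are those of the sample titles, from which the descriptions differ in 3 of 27 samples, and were checked as pairs: deviations of all 3 pairs correlated over 0.1 for P0 with P7 (0.11 to 0.35) and for Keap1-/- with Nrf2-/-Keap1-/- (0.12 to 0.35), a hint from the data only, and not in the other comparisons. Alternatives were processed signals, the deposited ratios, other background, normalization, filter, probe and array choices, blocks for replicate, slide and scan, and each array left out. The comparison of Tmem252 between both Keap1 mutants, and the fit of P0 and P7 without 2 embryonic arrays, were added after seeing the data.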

Additional observations from a re-analysis of the deposited data

How the results depend on the processing

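The called differences that kept direction and call under every alternative were Tmem252 in Keap1-/- against wild type (1.51 to 2.34) and Tmem252 in Nrf2-/-Keap1-/- against Keap1-/- (-2.02 to -1.36). Neither range covers an effect of slide or scan, because no other genotype was hybridised or scanned together with Keap1-/-. Mal in adult wild type against P7, given with no test, ran from -6.02 to -4.82. The cause of the changes below was not tested unless said. Leaving out outlier-marked spots gave Mal 4.10 from E15.5 to P0 (no longer called), -0.07 from P0 to P7 and 4.66 in Nrf2-/-Keap1-/- against Keap1-/-. Processed signals and deposited ratios gave Mal 4.80, -0.04 and 5.03 in those comparisons. They gave Tmem252 0.44 from E15.5 to P0 (not called), 0.05 in Nrf2-/- at P7, 1.02 from P7 to adult (given with no test) and 0.48 in adult Nrf2-/-. Olah in adult Nrf2-/- was then 4.28 and 4.36. Each spot's own background gave Mal 4.13 and Tmem252 0.59 from E15.5 to P0 (neither called), Tmem252 -0.39 from P7 to adult and 2.22 in adult Nrf2-/-, and Olah 2.27, and no background correction gave Olah 2.29. Median centring gave Tmem252 0.32 from E15.5 to P0 (not called), -0.01 in Nrf2-/- at P7 and 1.09 in adult Nrf2-/-, Olah 1.25, and Mal -0.21 from P0 to P7, -4.33 in Keap1-/- and 4.26 in Nrf2-/-Keap1-/- against it. Scale normalization gave Mal -5.64, 4.66 and, against wild type, -0.98 (called), Olah 1.50 and Tmem252 1.12. The brightest probe gave Mal -0.07 from P0 to P7, -4.86 and 4.42.

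From E15.5 to P0, Mal without the filter on dim probes (4.03) and Tmem252 with all 27 arrays or only the 2 groups (0.65) lost the call. Slide as a block gave -1.63 for Mal and -0.02 for Tmem252 from E11.5 to E15.5. The only E15.5 array on the slide of the E11.5 arrays was replicate 1, which went against its label. Those 2 blocked values therefore rest on that array. Scan as a block gave Tmem252 1.25 in adult Nrf2-/-. Without both embryonic arrays that stand apart Mal was 3.97 from E11.5 to E15.5 (now called) and Tmem252 0.57 from E15.5 to P0 (no longer called). Leaving out 1 array gave 2.62 to 4.78 for Mal and 0.53 to 0.80 for Tmem252 from E15.5 to P0. It gave -0.17 to 0.12 for Mal from P0 to P7, -0.28 to 0.01 for Mal in Nrf2-/- at P7, 0.00 to 0.21 for Tmem252 from E11.5 to E15.5 and 0.00 to 0.36 for Tmem252 in Nrf2-/-Keap1-/-. Leaving out an adult Nrf2-/- array left Olah untested, since only 2 arrays then passed the filter, and it had no test in other comparisons for that reason.

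The replicate number as a block changed no call of a member, with Tmem252 at 2.05 (adjusted p = 0.00149 in limma, range over the alternatives 2.08e-06 to 0.00488) in Keap1-/- and Mal at 4.03 (adjusted p = 0.0306, range 3.54e-05 to 0.115) from E15.5 to P0, but lowered the calls in adult Nrf2-/- from 81 to 21. Calls in adult Nrf2-/- were 34 with processed signals and 20 with median centring. Calls from P7 to adult were 7774, or 4317 with median centring. Those in Nrf2-/-Keap1-/- against wild type were 88, or 4 with processed signals and 43 with the filter on both channels, and those in Nrf2-/- at P7 were 3 or, with processed signals, 5. Without both embryonic arrays the calls were 2693 in place of 0 between E11.5 and E15.5, and 1104 in place of 480 between P0 and P7. With outlier-marked spots left out 16 of the Nrf2 targets and 12 fatty acid genes were called in Keap1-/-, as fewer genes had enough values.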
